A study of Bos taurus with 9 samples.

Results

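MX1, MX2, RSAD2, IFI44, IFI44L, IFI6, IFI27 and BST2 are antiviral effector genes that type I interferon switches on. They were chosen by name from their shared role, and 7 of the 8 had a row among the 17162 genes of the expression table. BST2 (tetherin) had no row under that symbol, and 3 genes whose descriptions name bone marrow stromal antigen 2, the protein that tetherin is, are given beside the 7 as relatives. The values came from BEND, primary bovine endometrial cells grown from the uteri of Holstein cows and passaged in culture, all WT and all kept in medium with serum. The 9 libraries were 3 of each group. CON cells received no stimulation. GA cells were treated with 1 nM E2 (estradiol) and 100 nM P4 (progesterone), by the methods for 12 h. In GB the same 12 h of hormones came first, followed by 100 ng/mL IFNT (interferon tau) for another 12 h. GB vs. CON therefore compares hormones and IFNT together with neither. GB vs. GA is the comparison that differs in IFNT, possibly together with the time in culture. GA vs. CON is the comparison that differs in the hormones. By the methods the treated groups received the hormones in fresh medium, and whether CON medium was changed is not said. Both comparisons with CON thus possibly also differ in the medium change and the time in culture. No group received IFNT without hormones. Whether CON and GA cells were collected with GB cells or 12 h earlier is not said, nor how many cows the 3 replicates of a group came from, so p-values measure the spread between these cultures.

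In ruminants the trophoblast of the elongating conceptus releases IFNT, a type I interferon, to signal pregnancy to the mother. It binds the receptor chains IFNAR1 and IFNAR2, whose kinases JAK1 and TYK2 activate STAT proteins. STAT2 joins IRF9 in the complex ISGF3, which turns on interferon-stimulated genes. The genes described here are end products of that pathway and act on viruses at different steps. MX1 and MX2 are dynamin-like GTPases that block incoming viral particles, viperin (RSAD2) is a radical SAM enzyme that makes a chain-terminating nucleotide, IFI6 and IFI27 are small hydrophobic proteins of the endoplasmic reticulum and mitochondria, and tetherin holds budding virus at the cell surface. MX genes, RSAD2 and IFI27 are long-used readouts of conceptus interferon in ruminant endometrium.

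MX2 was among the genes that the study also measured by qRT-PCR, and its primer pair is shown because it is the designed sequence that reads a gene of this group. Both primers are written 5′ to 3′ in lower case.
MX2 forward: acggcgtggttctgaacaaag
MX2 reverse: tgatgaacgggatctgattgg
Only the RNA-seq values of MX2 are described here.

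All 7 genes with a row were far higher in the 3 GB libraries than in any CON or GA library, and all 7 were called higher in both comparisons with GB. Calls were made with limma on log2(FPKM + 0.5), where FPKM counts fragments per length of exon and per depth of the library. A call needed |log2FC| above 1 together with an adjusted p (Benjamini-Hochberg, over 12578 genes) under 0.05. Genes were tested at a mean FPKM of at least 0.5 over the 9 libraries. MX2, RSAD2, IFI44 and IFI44L passed this filter only through their GB values. For them a high GB level was thus a condition of being tested. Without the filter all 7 were called as well. Of all genes tested, 2.94% were called higher and 1.07% lower in GB vs. CON, and 2.66% higher and 0.978% lower in GB vs. GA. The GB libraries lay above all CON libraries at 22.2% of genes tested and above all GA libraries at 15.7%. The median log2FC of the 7 fell on IFI44 against CON, where IFI44 is listed at 0, so no size is read from it. Over the 5 genes above 0 in every CON library, a choice made after seeing the data, the median was 7.79 against CON and 7.92 against GA, beside -0.016 and -0.075 over all genes tested. With a pseudocount of 1 the medians of the 5 were 7.69 and 7.85, and with 0.1 they were 7.88 and 7.98. The 3 GB libraries are common to both comparisons, and below a difference of GB is given against CON or against GA. In cultures measured whole, more RNA per cell and more cells that make it cannot be told apart.

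**Figure D1:**
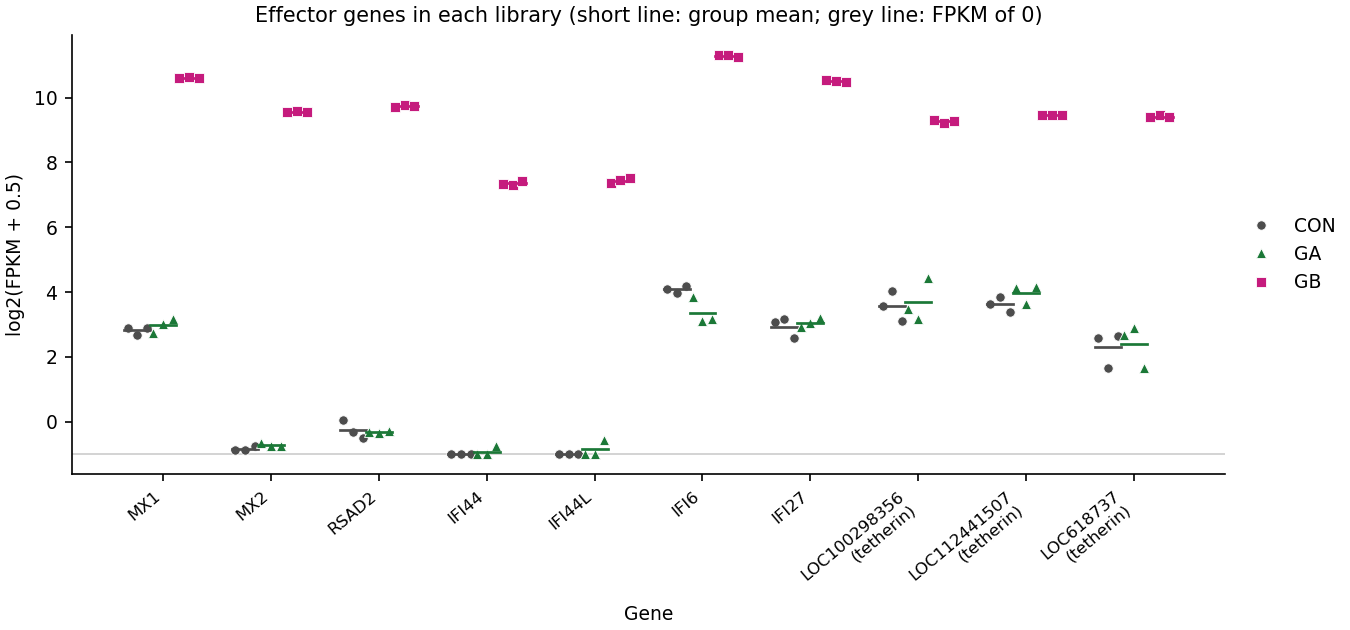
The vertical axis is log2(FPKM + 0.5) and each point is 1 library of CON, GA or GB for the gene named on the horizontal axis, with short lines at the group means of 3. The GB points of all 7 effector genes and of the 3 tetherin genes sit above every CON and GA point, and IFI44 and IFI44L sit at the line for 0 in all CON libraries.

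MX1 had a level without IFNT and MX2 almost none. MX1, the GTPase that acts on RNA viruses in the cytoplasm, was at 7.00, 5.91 and 6.92 FPKM in CON, at 6.16, 7.67 and 8.53 FPKM in GA and at 1558, 1587 and 1570 FPKM in GB. CON and GA overlapped and GB stood apart. The GB mean was 1572 ± 14.5 FPKM (SD, n = 3), 238 times the CON mean of 6.61 ± 0.608 and 211 times the GA mean of 7.45 ± 1.2. Its log2FC by limma was 7.79 (SE 0.106, adjusted p = 9.0e-11) against CON and 7.64 (adjusted p = 1.1e-10) against GA.

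MX2, its paralog next to it on chromosome 1, was at 0.05, 0.05 and 0.09 FPKM in CON, at 0.14, 0.09 and 0.09 FPKM in GA and at 756.8, 761.6 and 753.0 FPKM in GB. No library without IFNT reached 0.15 FPKM. MX2 passed the filter on mean FPKM only through GB, so no p-value is given for it. The log2FC of MX2 by limma was 10.39 against CON (SE 0.079), the highest of the 12578 genes tested. Against GA it was 10.29, at rank 2. The log2FC against CON runs from 9.48 with a pseudocount of 1 to 12.19 with a pseudocount of 0.1. The level of MX2 relative to MX1, each in FPKM, was 0.00954 ± 0.0031 in CON, 0.0150 ± 0.0067 in GA and 0.482 ± 0.0034 in GB (SD, n = 3). The ratio did not overlap between GB and the other groups. The CON and GA ratios are coarse, since they rest on MX2 values near 0 given to 2 decimals. An exact permutation test of 3 against 3 libraries cannot go below p = 0.1, so such ratios are given as values. Within GB the spread of both genes was small, with a coefficient of variation of 0.924% for MX1 and 0.572% for MX2.

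Viperin was under 1 FPKM in every library without IFNT and came after IFI6, MX1 and IFI27 by level in GB. RSAD2 was at 0.53, 0.31 and 0.20 FPKM in CON, at 0.30, 0.29 and 0.32 FPKM in GA and at 840.9, 870.0 and 854.9 FPKM in GB. GA lay inside the range of CON. RSAD2 also passed the filter on mean FPKM only through GB, so no p-value is given. The log2FC of RSAD2 by limma was 10.00 against CON (SE 0.125) and 10.06 against GA, at rank 3 of all genes tested in each. It runs from 9.32 with a pseudocount of 1 to 10.97 with 0.1 against CON.

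IFI44 and IFI44L, neighbouring paralogs on chromosome 3 and interferon-induced cytoplasmic proteins, were listed at 0 in all CON libraries. IFI44 was at 0, 0 and 0.09 FPKM in GA and at 162.4, 157.2 and 172.6 FPKM in GB. IFI44L was at 0, 0 and 0.18 FPKM in GA and at 163.0, 175.8 and 181.9 FPKM in GB. Both genes had a value above 0 outside GB in the same library, GA replicate 3. No fold is given against CON, where both are listed at 0. Both were called against CON. Equal values at 0 leave CON without spread, and both genes passed the filter on mean FPKM only through GB, so no p-value is given. In GB vs. GA the log2FC was 8.28 for IFI44 (SE 0.110) and 8.29 for IFI44L (SE 0.137). Each SE rests on a spread shared over all groups, so the CON values at 0 enter it as well. A pseudocount of 1 gave 7.32 and 7.37, and one of 0.1 gave 10.37 and 10.27. The ranges of the pair overlapped in GB, with an IFI44L to IFI44 ratio of 1.06 ± 0.058 (SD, n = 3). Their coefficients of variation in GB, 4.78% and 5.56%, were the widest of the 7.

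IFI6, which stabilises mitochondria and guards the endoplasmic reticulum against flavivirus replication, was the most abundant of the 7 in CON and in GB. It was at 16.49, 15.26 and 17.75 FPKM in CON, at 13.84, 8.08 and 8.43 FPKM in GA and at 2561, 2525 and 2426 FPKM in GB. The GB mean of 2504 ± 69.8 FPKM (SD, n = 3) was 152 times the CON mean and 247.5 times the GA mean. The log2FC of IFI6 was 7.20 against CON (SE 0.167, adjusted p = 1.5e-09 by limma) and 7.92 against GA (adjusted p = 8.8e-10).

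IFI27, a mitochondrial and nuclear-envelope protein also called ISG12, was at 7.91, 8.48 and 5.46 FPKM in CON, at 7.11, 7.81 and 8.64 FPKM in GA and at 1490, 1469 and 1433 FPKM in GB. The GB mean of 1464 ± 28.9 FPKM (SD, n = 3) was 201 times that of CON and 186 times that of GA. The log2FC of IFI27 was 7.58 against CON (SE 0.137, adjusted p = 3.8e-10 by limma) and 7.46 against GA. The IFI6 to IFI27 ratio of levels was 2.38 ± 0.77 in CON, 1.32 ± 0.54 in GA and 1.71 ± 0.015 in GB, with GB inside the range of GA and below the 3 CON libraries.

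The 3 tetherin genes lie side by side on chromosome 7 in the reference gene table and were all called higher in both comparisons with GB. They are close paralogs, and how the counting divided shared reads among them is uncertain. LOC100298356 was at 11.39, 16.02 and 8.20 FPKM in CON, at 10.75, 8.49 and 21.20 FPKM in GA and at 635.6, 599.5 and 619.2 FPKM in GB. LOC112441507 was at 11.96, 13.94 and 10.05 FPKM in CON, at 16.98, 11.94 and 17.37 FPKM in GA and at 711.3, 709.5 and 703.2 FPKM in GB. LOC618737 was at 5.45, 2.69 and 5.74 FPKM in CON, at 5.89, 6.92 and 2.64 FPKM in GA and at 678.7, 699.3 and 669.9 FPKM in GB. All 3 had a level in every library, unlike MX2, RSAD2 and the IFI44 pair, which were under 1 FPKM in all CON and GA libraries.

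The log2FC against CON was 5.69 for LOC100298356 (SE 0.311), 5.84 for LOC112441507 (SE 0.146) and 7.12 for LOC618737 (SE 0.329), and against GA it was 5.57, 5.49 and 7.01. Summed into 1 gene, which was chosen after seeing the data, tetherin was at 28.5 ± 4.34 FPKM in CON, 34.1 ± 6.94 in GA and 2009 ± 16.7 in GB (SD, n = 3). The log2FC of the sum was 6.13 against CON (adjusted p = 1.6e-09) and 5.88 against GA (adjusted p = 2.1e-09). LOC618737 held 17.0% ± 8.01 of it in CON, 16.4% ± 9.50 in GA and 34.0% ± 0.727 in GB. LOC112441507 held 42.0% ± 0.597, 45.4% ± 4.45 and 35.2% ± 0.115, and LOC100298356 held 40.9% ± 7.54, 38.2% ± 11.5 and 30.8% ± 0.809. The GB shares of LOC618737 lay above and those of LOC112441507 below all CON and GA libraries, while those of LOC100298356 overlapped with GA.

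**Figure D2:**
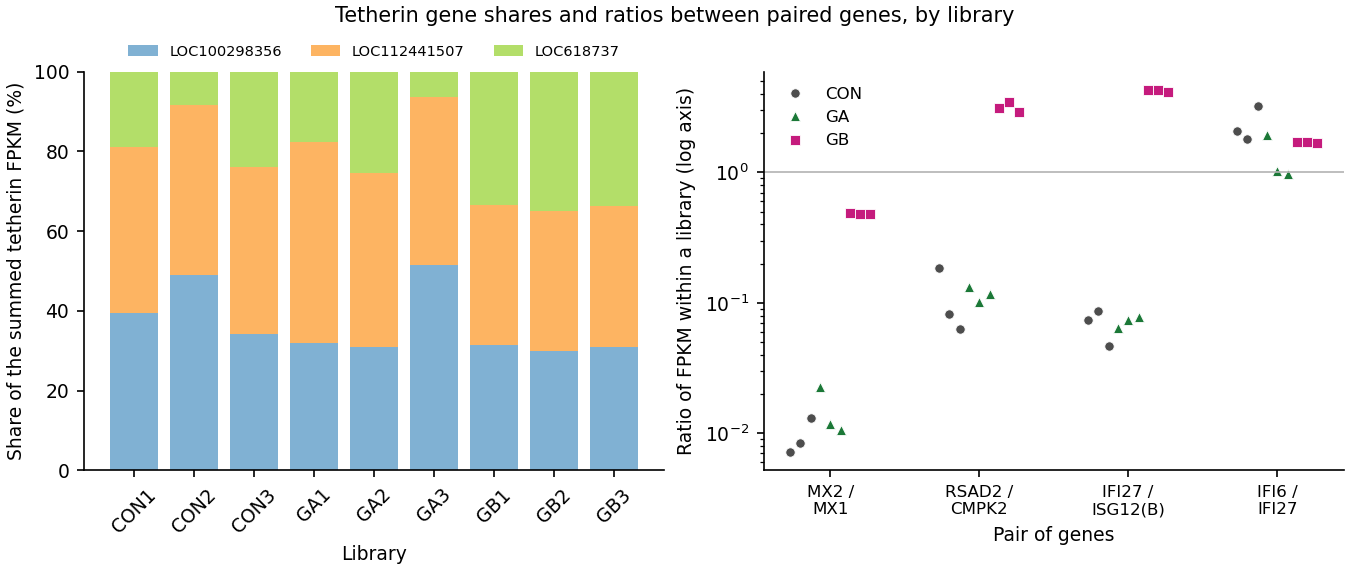
Left, each bar is 1 library and its colours are the shares of the summed tetherin FPKM held by the 3 tetherin genes, in percent. Right, each point is the ratio of FPKM of 2 genes within 1 library on a log axis. The LOC618737 share is at 33.5% to 34.8% in GB and at most 25.3% elsewhere, and the MX2 to MX1, RSAD2 to CMPK2 and IFI27 to ISG12(B) ratios of GB lie above those of CON and GA.

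In GB the levels, which FPKM expresses per length, fell in the order IFI6, MX1, IFI27, RSAD2, MX2, LOC112441507, LOC618737, LOC100298356, IFI44L and IFI44. The ranges of neighbours in that order did not overlap, except those of IFI44L and IFI44. In CON IFI6 was also first by mean and lay above LOC112441507, the next, in every library, while the highest LOC100298356 value, 16.02 FPKM, fell within the IFI6 range. LOC112441507, LOC100298356, IFI27 and MX1 followed, and each overlapped with the next. LOC618737, RSAD2 and MX2 came after these, none overlapping the gene before it in the order, and the IFI44 pair was listed at 0. By mean level IFI6 ranked 86, MX1 145, IFI27 155, RSAD2 267 and MX2 315 among the 17162 genes in GB, while IFI44L and IFI44 ranked 1327 and 1400. Together the 7 genes held 0.00219% ± 8.5e-05 of the FPKM sum of a library in CON, 0.00180% ± 0.00013 in GA and 0.530% ± 0.0085 in GB (SD, n = 3).

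In GA vs. CON none of the 7 genes and none of the 3 tetherin genes was called. Of all genes tested, 0.0318% were called higher and 0.0398% lower in this comparison, so few genes of any kind were. The median log2FC of the 7 fell on MX2, at 0.11, beside 0.061 over all genes tested. MX2 was near 0 in both groups. Its log2FC ran from -0.071 with quantile normalization to 0.34 with a pseudocount of 0.1, so no size is read from this median. For MX1 the difference was 0.15 with a 95% interval of -0.085 to 0.39, and for IFI27 it was 0.12 with an interval of -0.19 to 0.43. LOC112441507 was at 0.34 with an interval of 0.014 to 0.67 and an adjusted p of 0.243 by limma. The intervals of LOC100298356 and LOC618737 reached from -0.58 and -0.63 to 0.82 and 0.85, the widest of these genes.

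IFI6 was the member for which the GA libraries all lay below the CON libraries, which was so at 6.13% of genes tested. Its log2FC in GA vs. CON was -0.72 (SE 0.167) with a 95% interval of -1.09 to -0.34, an unadjusted p of 0.0019 and an adjusted p of 0.0882 by limma, so it was not called. GA replicate 1, at 13.84 FPKM, was nearer to CON than the other two GA libraries. Without it the log2FC was -0.96 and the adjusted p was 0.0065, with the fold still under the threshold. Over all alternatives the log2FC of IFI6 lay between -0.96 and -0.58 and the adjusted p between 0.0065 and 0.238.

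**Figure D3:**
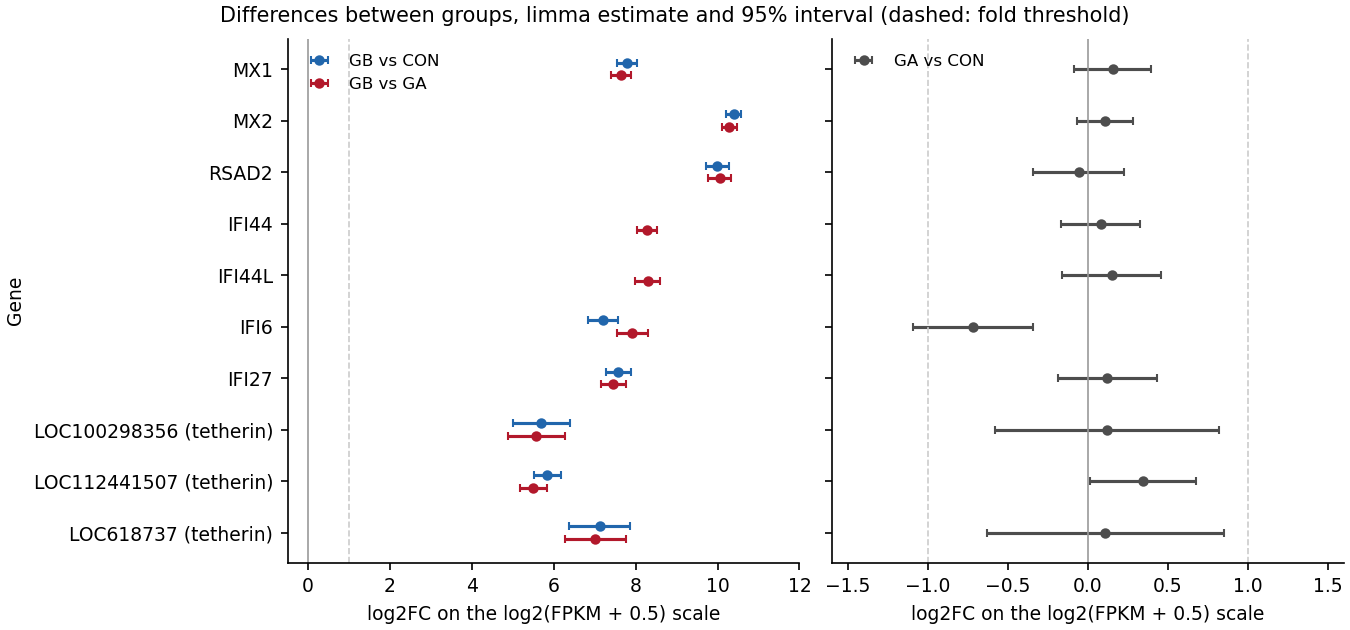
Points are log2FC on the log2(FPKM + 0.5) scale by limma with 95% intervals, for GB vs. CON and GB vs. GA on the left and for GA vs. CON on the right, and dashed lines mark the fold threshold. IFI44 and IFI44L have no GB vs. CON point because both are listed at 0 in CON. Their other intervals rest on a spread shared over all groups, which includes these CON values. The IFI6 interval of -1.09 to -0.34 is the one on the right that lies below 0.

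Of the 6 receptor and ISGF3 genes described, 2 were called higher and 1 lower in each comparison with GB. Among all genes tested the shares were 2.94% higher and 1.07% lower against CON, and 2.66% and 0.978% against GA. IRF9 was at 22.81, 23.31 and 26.60 FPKM in CON, at 22.65, 23.25 and 24.78 FPKM in GA and at 113.2, 108.1 and 106.4 FPKM in GB. STAT2 was at 13.31, 12.01 and 13.17 FPKM in CON, at 12.28, 12.31 and 13.47 FPKM in GA and at 45.85, 49.28 and 47.65 FPKM in GB. CON and GA overlapped at both genes and GB stood apart. The log2FC against CON was 2.15 for IRF9 (adjusted p = 1.3e-08) and 1.85 for STAT2 (adjusted p = 3.5e-08 by limma). Both had levels in CON above those of MX1, and log2FC values below those of the 7 effectors. IFNAR1 was lower, at 32.54, 29.71 and 34.65 FPKM in CON, 35.66, 35.96 and 38.06 FPKM in GA and 12.41, 15.08 and 15.16 FPKM in GB, a log2FC of -1.16 against CON (adjusted p = 1.1e-05) and -1.34 against GA. JAK1, TYK2 and IFNAR2 were not called, with a log2FC of -0.0047, 0.055 and 0.26 against CON. IFNAR2 had an adjusted p of 0.0478 against CON by limma, past the p threshold and under the fold threshold. In GA vs. CON none of the 6 was called. The median over the 6 was 0.16 against CON and 0.048 against GA.

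The MX proteins belong to the dynamin superfamily, whose other members cut and fuse membranes. Of 7 such relatives 6 were tested, DNM1 being too low, and 0 of 6 were called by limma in either comparison with GB. Calls were rare over all genes tested, at 2.94% higher and 1.07% lower against CON and 2.66% and 0.978% against GA. A count of 0 of 6 is near that share. The median log2FC of the 6 was 0.053 against CON and 0.034 against GA. MFN2, which fuses mitochondria, was at 49.06, 50.73 and 45.71 FPKM in CON, 50.71, 49.76 and 51.91 FPKM in GA and 78.08, 81.44 and 74.55 FPKM in GB. Its log2FC was 0.68 against CON (adjusted p = 1.6e-05) and 0.61 against GA, past the p threshold and under the fold threshold. MFN1 was at -0.26 against GA (adjusted p = 0.0496), and DNM2, DNM3, DNM1L and OPA1 had an adjusted p above 0.05 in both.

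Of 5 genes linked to viperin, only CMPK2 was called, beside 2.94% of all genes tested called higher against CON and 2.66% against GA. CMPK2, the mitochondrial kinase that makes the nucleotide viperin uses and the next gene to RSAD2 on chromosome 11, was at 2.88, 3.76 and 3.17 FPKM in CON, at 2.25, 2.84 and 2.74 FPKM in GA and at 270.6, 251.7 and 293.5 FPKM in GB. Its log2FC was 6.18 against CON (adjusted p = 3.6e-10) and 6.46 against GA. In level CMPK2 lay above RSAD2 in every CON and GA library and below it in every GB library, the RSAD2 to CMPK2 ratio being 0.110 ± 0.065, 0.117 ± 0.016 and 3.16 ± 0.28. The CON and GA ratios rest on low RSAD2 values. CIAO1, an iron-sulfur cluster assembly factor, FDPS, the farnesyl diphosphate synthase that viperin binds, and HADHA and HADHB, the subunits of the mitochondrial trifunctional protein, lay between -0.16 and 0.0085 against CON and between -0.27 and -0.045 against GA. CIAO1, HADHA and HADHB had an adjusted p under the threshold against GA and FDPS did not. The median of the 5 was -0.076 and -0.17.

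ISG12(B), a relative of IFI27 that lies next to it on chromosome 21, was also called but from a higher base. It was at 107.2, 97.39 and 117.0 FPKM in CON, at 110.5, 105.3 and 110.3 FPKM in GA and at 347.6, 341.5 and 343.1 FPKM in GB. The log2FC of ISG12(B) was 1.68 against CON (adjusted p = 4.6e-08) and 1.66 against GA. The IFI27 to ISG12(B) ratio of levels was 0.0692 ± 0.021 in CON, 0.0723 ± 0.0072 in GA and 4.26 ± 0.069 in GB, so the lower of the pair without IFNT was the higher with it. Whether the counting moved reads between these relatives was not tested. IFI27L2, on the other side of IFI27, was at -0.30 against CON (adjusted p = 0.108) and was not called. IFI27L1 was not analysed here.

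The loci of these genes were also read. The 2 nearest genes on either side, taken in the order of the ARS-UCD2.0 gene table and from the genes with values, gave 24 neighbours at 6 loci, of which 18 were tested. CMPK2, ISG12(B) and CCDC194 were called higher in both comparisons with GB, 0 were called lower, and the median log2FC of the 18 was 0.19 and 0.11. The share called higher over all genes tested was 2.94% against CON and 2.66% against GA. None of the neighbours overlaps the gene it was chosen for in that table. CCDC194, which follows the tetherin genes, was at 0, 0.40 and 0 FPKM in CON, at 0, 0.18 and 0.20 FPKM in GA and at 26.66, 21.08 and 21.96 FPKM in GB. Its log2FC was 5.28 against CON and 5.25 against GA, and against CON it runs from 4.43 with a pseudocount of 1 to 7.08 with 0.1. The call therefore extended over 4 neighbouring genes at the tetherin locus. CCDC194 had passed the filter on mean FPKM only through its GB values, so no p-value is given for it.

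The other 15 tested neighbours were not called. By limma 8 of them passed the p threshold against CON and 6 against GA, all under the fold threshold. FAM76A beside IFI6 was at 0.66 against CON (adjusted p = 0.00023), and ID2 and RNF144A on the far side of RSAD2 were at -0.50 and -0.38 (adjusted p = 0.0012 and 0.0042). LOC514011 was at 0.42, MVB12A at 0.25, ADGRL2 at -0.39 and AHDC1 at -0.35 against CON (adjusted p = 0.0081, 0.021, 0.0062 and 0.0055). Of the 4 neighbours of the MX pair, BACE2 was at 0.25 against CON (adjusted p = 0.016) and at 0.13 against GA, PRDM15 was not called, and FAM3B and RIPK4 were under the filter. FAM3B, directly next to MX2, was listed at 0 in 8 of 9 libraries.

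**Figure D4:**
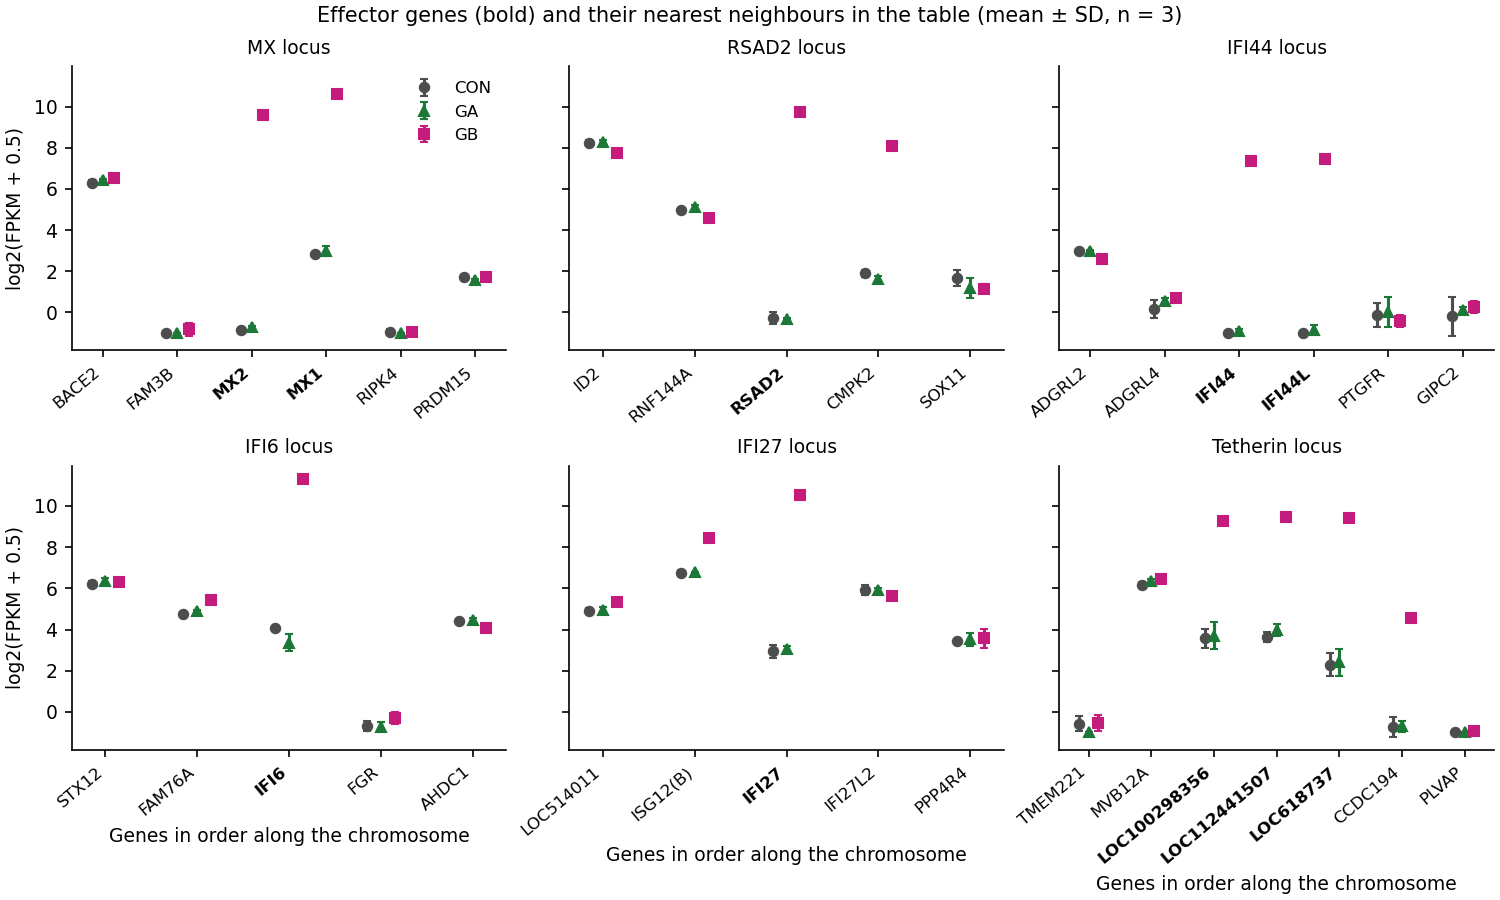
Each panel is 1 locus with genes in chromosome order, effector and tetherin genes in bold, and points give the mean log2(FPKM + 0.5) of 3 libraries of a group with SD bars. The GB points stand far above CON and GA at the genes in bold and at CMPK2 and CCDC194, by less at ISG12(B), and near them at most other neighbours.

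Outside the list, the genes whose log2(FPKM + 0.5) over the 9 libraries was most like the mean pattern of the 7 were LOC509283, described as RNF213, LOC507055, described as GBP4, OAS2, PARP14 and WARS, with a Pearson r of 0.9999, 0.9999, 0.9998, 0.9998 and 0.9996. RNF213 is a ubiquitin ligase of the antimicrobial response, GBP4 a guanylate-binding GTPase, OAS2 an enzyme that makes 2-5A, PARP14 an ADP-ribosyltransferase and WARS the tryptophanyl-tRNA synthetase. The 9 points form 2 clusters, GB and the rest, and share libraries and scaling, so r describes the step between them. Over the 6 libraries without IFNT the same r was 0.56, 0.078, 0.73, 0.046 and -0.040. WARS had a level of 238 ± 8.74 FPKM in CON and 1655 ± 51.8 FPKM in GB, which is a likeness in shape and not in size of change.

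The cells are labelled epithelial, and the markers in the table went against that label. Of 11 epithelial markers 9 had a row, and all 9 were under 1 FPKM in every library, with a summed level of 1.03 to 2.04 FPKM in CON, from 1.37 to 1.93 FPKM in GA and 1.6 to 2.34 in GB. KRT18, the keratin by which the study checked its cultures at the protein level, lay between 0.16 and 0.67 FPKM. The 10 stromal fibroblast markers summed to 16804 to 17394 FPKM in CON, from 16994 to 17390 FPKM in GA and from 15245 to 15356 FPKM in GB, with VIM the highest. The GB sums were thus the lowest and 0 of the 10 were called. This is near the share over all genes tested, 2.94% higher and 1.07% lower against CON and 2.66% and 0.978% against GA. The median log2FC of the 10 was -0.16 in both comparisons with GB. Below the fold threshold, 6 of the 10 passed the p threshold against CON by limma and 7 against GA. Of the 6, FAP (log2FC -0.67), COL3A1, COL1A2, PDGFRB and VIM were lower and PDGFRA was higher, at 0.38. Of the 7, PDGFRA was again higher, at 0.33, and FAP, COL3A1, COL1A2, VIM, DCN and LUM were lower. With GA set against CON, 3 passed the p threshold, DCN and LUM being higher and PDGFRB lower. The 6 endothelial markers summed to 2.44 to 4.10 FPKM in CON, from 1.99 to 4.09 FPKM in GA and from 4.88 to 6.16 FPKM in GB. Here the GB sums were the highest, at a low level, and 0 of the 2 tested were called. CDH5 passed the p threshold against GA, under the fold threshold (log2FC 0.68, adjusted p = 0.0395 by limma). The 8 immune markers with a row summed to 23.5 to 38.6 FPKM over the 9 libraries, with CD14 the highest, and 0 of the 4 tested were called. The effector genes are therefore described for BEND as the cultures are named, and the part of cell makeup in their levels was not tested.

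**Figure D5:**
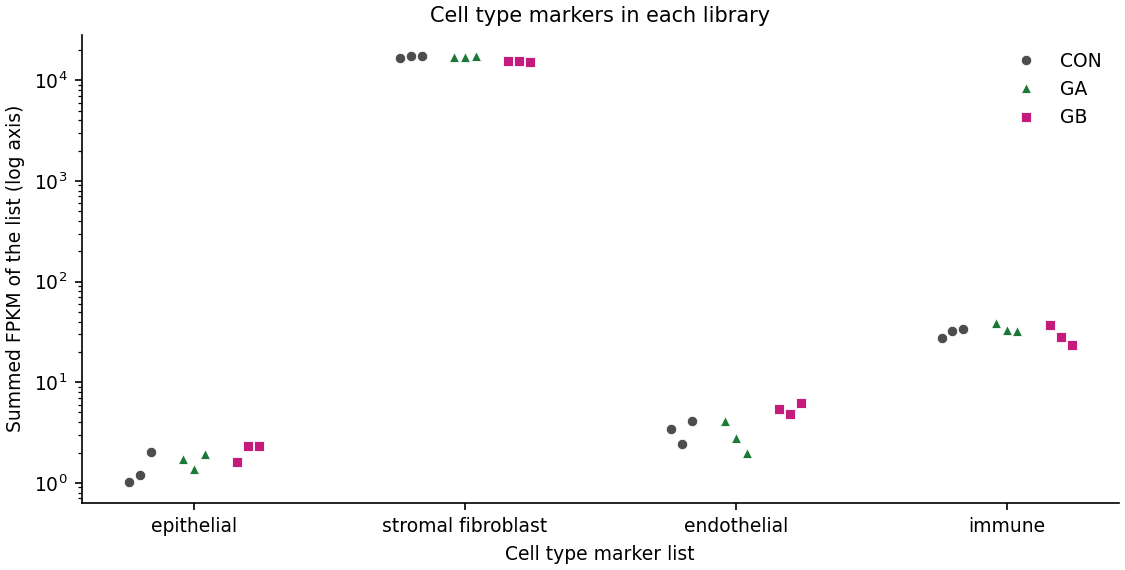
The vertical axis is the summed FPKM of a marker list on a log axis, and each point is 1 library of CON, GA or GB. The epithelial sums lie between 1.03 and 2.34 FPKM and the stromal fibroblast sums between 15245 and 17394 FPKM in all 3 groups.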

How the data were processed

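The values were the authors' deposited FPKM per gene and library, to 2 decimals. Per the labels and the methods, the authors made directional poly-A libraries from primary BEND, trimmed reads with fastp 0.21.0, removed rRNA with Bowtie2, aligned to ARS-UCD1.2 with HISAT2 2.2.1 and counted with RSEM 1.3.3. Whether strand was used in counting is not stated. The table holds no read counts. From 128 genes taken to be at about 1 read, reads per FPKM lay between 0.899 and 1.05 of the mean library. Only genes whose values above 0 differed by a ratio of at most 1.35 were used, which itself limits that range. FPKM sums were 1395622 to 1442723.

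limma 3.58.1 in R 4.3.3 was fitted with a variance trend to log2(FPKM + 0.5) of all 9 libraries, without further scaling, for 12578 genes at or above a mean FPKM of 0.5, and log2FC on this scale understates changes of low genes. Groups came from the labels. A supplementary mapping table of the study names its libraries GA, GB and GC, and it was not used to assign groups. On simulated data of 12578 genes with 200 changed, GB vs. CON recovered 190 of them beside 0 false calls, GB vs. GA recovered 192 beside 2 false calls. Normal noise was drawn independently for each gene, and every change was set well past the fold threshold. Recovery of changes nearer the threshold was thus not tested. The genes and lists were chosen with earlier results of these data known. Named are the members, their pathway lists and relatives, the 2 nearest neighbours on each side, and the 5 genes most like them. Of the table's genes 16015 matched a unique symbol in the ARS-UCD2.0 gene table, which was used for names and order. Promoter and protein sequences, EPCAM, KRT5, PTPRC and CD3E were not analysed here. One gene of the receptor and ISGF3 list is not reported here, and counts are over the others. Alternatives were pseudocounts of 1 and 0.1, no filter or one at 1, 4 rescalings (equal sums with and without the members, median-of-ratios, quantile), no variance trend, only the groups compared, the replicate block and each library left out. Figures used matplotlib 3.10.9.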

Additional observations from a re-analysis of the deposited data

How the results depend on the processing

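The 7 effector genes were called higher in both comparisons with GB, and 0 were called in GA vs. CON, under every alternative run, including each library left out in turn. Same-numbered libraries deviated together with correlations of -0.031 to 0.077, so the numbers were not taken as pairs, and with a replicate block 7, 7 and 0 of the genes were called. All 343 values recomputed in each GB comparison kept their direction and call. In GA vs. CON, where none was called, quantile normalization turned MX2 to -0.071 and leaving out single libraries turned 4 others, with ranges of -0.19 to 0.093 for RSAD2, -0.061 to 0.23 for IFI27, -0.25 to 0.39 for LOC100298356 and -0.20 to 0.49 for LOC618737. Over all genes tested, GA vs. CON calls fell from 9 to 2 with the filter at a mean FPKM of 1 and ranged from 3 to 14 with a library left out. The size of log2FC for MX2, RSAD2, IFI44, IFI44L and CCDC194 depends on the pseudocount, since their values without IFNT are near 0.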
